A study of Mus musculus with 8 samples.

Results

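The genes described here encode 9 complement proteins that hepatocytes secrete into plasma: the lectin-pathway genes Mbl1, Mbl2 and Masp1, the central component C3, and the terminal components C6, C8a, C8b, C8g and C9. They were chosen by name, with earlier results of these data known, and all 9 were listed among the 24972 genes of the deposited tables. All 9 also passed the filter on low values (at least 10 in at least 4 libraries), which left 13301 genes to test. RNA came from livers of C57BL/6J mice aged 18 weeks. At 10 weeks of age they had received an adeno-associated virus of serotype 8 (AAV8) by vein, and the RNA was taken 8 weeks later. The virus was AAV8-ALB-ATF3 in the ATF3 group and AAV8-ALB-Null in the Null group, so both groups carried AAV8 and neither was free of virus. ALB was taken as the albumin promoter, which would limit expression mainly to hepatocytes; ATF3 is a stress-induced transcription factor of the bZIP family. The study asked which hepatic genes ATF3 regulates. Each arm is represented by 4 libraries, whereas the series' design mentions 8 injected mice for each virus. The labels do not say whether a library holds 1 mouse or a pool, nor the sex of the mice. The p-values therefore describe variation among libraries, which may be technical.

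Complement is a cascade of plasma proteins made mostly by the liver. In the lectin pathway, mannose-binding lectins (Mbl1 and Mbl2) bind sugars on microbial surfaces. Among the serine proteases that travel with them (MASPs) are those that start the cascade. Masp1 encodes MASP-1 and, by alternative splicing, MASP-3. All pathways meet at C3, whose cleavage marks the surface and leads to cleavage of C5. The terminal components C6, C7, C8 and C9 then assemble on C5b into the membrane attack complex. C8 is itself built from an alpha, a beta and a gamma chain, the products of C8a, C8b and C8g, and C9 forms the pore.

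Libraries were scaled by the authors to normalized counts, which summed to 26.2 to 28.4 in Null and 23.9 to 25.9 in ATF3 (in units of 1000000). The sums of the groups did not overlap, so the size of each change depends on the scale used. Atf3 checked the labels: the 4 Null libraries held 20.3 to 24.5 normalized counts and the 4 ATF3 libraries 5611 to 7053. Of the hepatocyte markers 9 of 10 were listed, and their summed counts were 2483049 to 3885532 in Null and 3322183 to 3939702 in ATF3; Ttr rose, Cps1 and Serpina1a fell and the other 6 did not pass. None of the 10 Kupffer cell markers, 8 endothelial, 9 stellate cell or 5 B and plasma cell markers passed the test, nor did the 2 T and NK cell markers tested. Of the 5 cholangiocyte markers Sox9 fell, with 54.8 to 270 normalized counts in Null and 16.8 to 71.7 in ATF3 (log2 change -1.89, SE 0.51, limma adjusted p = 0.0243), and its groups overlapped; the other 4 did not pass. The summed cholangiocyte markers were 881 to 1407 in Null and 890.3 to 1261 in ATF3, and their part in the results was not tested. The summed Kupffer cell markers were 10014 to 14502 in Null and 11669.5 to 16214 in ATF3. The 7 neutrophil markers summed to at most 32.4 in any library, and 3 of them were at 0 in all libraries. These are whole-liver values, so fewer cells of a type and less RNA per cell cannot be told apart.

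Of the 9 members, 5 fell and 2 rose with the ATF3 virus in limma's test (adjusted p under 0.05 over all genes tested), and C3 and C8g did not pass. The background was high: 21.2% of all tested genes passed, 9.82% as lower and 11.4% as higher. The members differed from each other in direction within the lectin pathway and within the terminal components. In the lectin pathway Mbl1 and Masp1 fell and Mbl2 rose. Among the terminal components C8a fell by far the most, C8b and C9 fell less, and C6 rose. The median log2 change was -0.80 over the members, which is a description of a chosen list, and 0.0068 over all tested genes. Library values of the groups did not overlap for 6 members, against 26.3% of all tested genes.

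**Figure D1:**
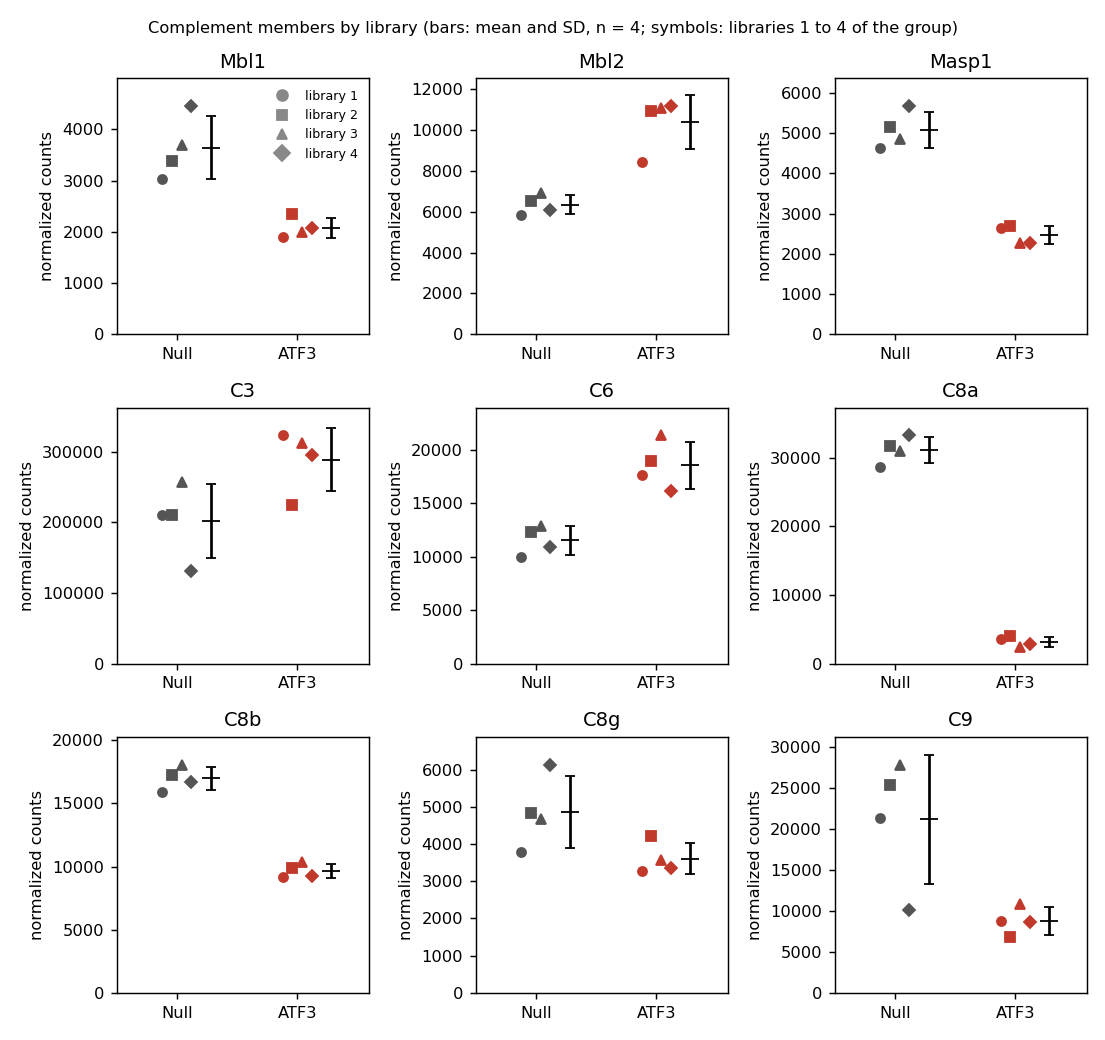
Normalized counts (y axis, from 0) of the 9 members in the 4 Null (grey) and 4 ATF3 (red) libraries; bars give mean and SD. The C8a values of the ATF3 group, 2355 to 3965, lie far under the Null values of 28693 to 33282, while C3, C8g and C9 overlap between the groups.

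Promoter sequence is shown for the members whose behaviour is compared below: the adjacent genes C8a and C8b, the paralogs Mbl1 and Mbl2, and C3 with C9, which varied together between libraries. C6 with C8b and C8g with Mbl1 varied together about as closely, as given further on. Each run holds the 250 bases before the RefSeq start of transcription, 5′ to 3′ on the gene's strand, from RefSeq on GRCm38.p6 (mm10). RefSeq windows matched 8 of the 9 members by symbol, and Masp1 was not matched. Capitals mark matches, on either strand, to 8 short motifs. These were the full ATF and CREB site TGACGTCA and its core TGACG, the AP-1 site TGANTCA, the C/EBP-ATF site TGATGCAA, the C/EBP site TTGCNNAA, the HNF1 core GTTAAT, the HNF4 site CAAAGTCCA and the STAT site TTCNNNGAA. The core TGACG lies inside TGACGTCA, and no other pair of these motifs contains the other.

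C8a (chr4:104876399-104876648, minus strand): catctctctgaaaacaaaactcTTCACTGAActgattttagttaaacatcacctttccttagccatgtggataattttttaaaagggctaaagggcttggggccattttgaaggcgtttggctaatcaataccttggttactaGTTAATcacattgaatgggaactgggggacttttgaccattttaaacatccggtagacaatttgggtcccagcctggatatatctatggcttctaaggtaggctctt
C8b (chr4:104766067-104766316, plus strand): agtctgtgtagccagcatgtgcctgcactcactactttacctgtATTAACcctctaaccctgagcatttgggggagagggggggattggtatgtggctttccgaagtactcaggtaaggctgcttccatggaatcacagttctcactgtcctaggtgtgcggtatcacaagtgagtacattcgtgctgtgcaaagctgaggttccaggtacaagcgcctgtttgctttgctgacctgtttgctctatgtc
Mbl1 (chr14:41151206-41151455, plus strand): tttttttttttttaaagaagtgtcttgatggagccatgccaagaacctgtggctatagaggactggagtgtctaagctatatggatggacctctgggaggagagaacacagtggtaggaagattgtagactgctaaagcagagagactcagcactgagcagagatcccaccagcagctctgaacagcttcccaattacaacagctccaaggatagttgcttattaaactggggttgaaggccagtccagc
Mbl2 (chr19:30232678-30232927, plus strand): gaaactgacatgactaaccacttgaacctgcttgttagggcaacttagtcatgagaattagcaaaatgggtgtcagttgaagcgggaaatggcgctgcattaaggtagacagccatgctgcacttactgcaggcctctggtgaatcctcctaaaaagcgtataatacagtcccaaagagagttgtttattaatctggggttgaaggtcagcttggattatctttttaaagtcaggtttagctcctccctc
C3 (chr17:57228137-57228386, minus strand): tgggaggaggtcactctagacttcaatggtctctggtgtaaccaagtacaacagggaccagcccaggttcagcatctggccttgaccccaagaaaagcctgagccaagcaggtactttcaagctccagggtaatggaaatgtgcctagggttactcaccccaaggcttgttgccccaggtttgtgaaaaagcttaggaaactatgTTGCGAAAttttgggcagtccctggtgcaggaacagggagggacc
C9 (chr15:6445096-6445345, plus strand): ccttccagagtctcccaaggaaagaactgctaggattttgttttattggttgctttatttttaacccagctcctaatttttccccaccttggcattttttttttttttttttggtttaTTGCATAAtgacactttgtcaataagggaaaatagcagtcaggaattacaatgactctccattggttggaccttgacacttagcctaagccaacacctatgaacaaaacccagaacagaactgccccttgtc

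The windows of C8a and C8b each held the HNF1 core, which 6.43% of all 32851 promoter windows held. That of C8a also held a STAT match, found in 7.02% of windows. C3 and C9 each held a C/EBP match (9.56% of windows), 45 to 38 bases before the start in C3 and 132 to 125 bases before it in C9. The pairs that varied together about as closely, C6 with C8b and C8g with Mbl1, shared no match. C8g has 2 annotated starts, and the window of the downstream start held an AP-1 match (6.75% of windows). Mbl1, Mbl2 and C6 held no match to any of the 8 motifs. None of the 8 members with a window held the ATF and CREB site (1.55% of windows) or its core (17.8%), and Masp1 was not searched. A match describes these letters only, and binding was not measured.

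In the lectin pathway the paralogs Mbl1 and Mbl2, which encode the A and C forms of mouse mannose-binding lectin, moved in opposite directions. Null 1 to 4 held 3032, 3382, 3699 and 4459 normalized counts of Mbl1, and ATF3 1 to 4 held 1893, 2343, 1995 and 2072. Every ATF3 library lay under every Null library. Mbl1 fell by 0.80 (changes here and further on are log2 differences, SE 0.13, limma adjusted p = 0.00141). For Mbl2 the Null libraries gave 5851, 6515, 6940.2 and 6095, and the ATF3 libraries 8430.4, 10949.6, 11091 and 11189. Here every ATF3 library lay above every Null library, and ATF3 1 was the lowest of its group. Mbl2 rose by 0.71 (SE 0.11, limma adjusted p = 0.00164). No 31-base stretch of the Mbl1 or Mbl2 transcripts occurred in transcripts of another gene, so the pair could be told apart by sequence.

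The ratio of both lectin genes within a library does not depend on how libraries were scaled. Per length, in TPM (a library's transcript shares, scaled to a fixed total), Mbl2 over Mbl1 was 1.53, 1.53, 1.49 and 1.08 across the Null libraries. Across the ATF3 libraries it was 3.53, 3.70, 4.41 and 4.28. Mbl2 was thus the more abundant lectin transcript in all 8 libraries, and by more in the ATF3 group. The log2 ratio of Mbl1 over Mbl2 was lower by 1.51 in ATF3 (SE 0.14, exact two-sided permutation p = 0.0286, adjusted over 7 such pairs 0.04). With 4 libraries against 4, 0.0286 is the smallest p this test can give. Mbl1 and Mbl2 each separated the groups, in opposite directions, so their ratio had to separate them too. Its p therefore adds no support beyond the results of the single genes.

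Masp1, whose proteases travel with the lectins, fell. Null 1 to 4 held 4635, 5153, 4856 and 5681 normalized counts and ATF3 1 to 4 held 2638, 2699.7, 2273 and 2269. Both groups were tight and did not overlap, with a log2 change of -1.04 (SE 0.10, limma adjusted p = 6.42e-05). The values add up all transcripts of the gene, so MASP-1 and MASP-3 cannot be told apart. Relative to Mbl1, the log2 ratio of Masp1 was lower by 0.24 in ATF3 (SE 0.10), the groups overlapped, and the difference did not pass (exact permutation p = 0.0857, adjusted over the 7 pairs 0.1). Of the other lectin-pathway genes, the related protease gene Masp2 did not pass (log2 change -0.0060, SE 0.14, adjusted p = 0.981). The sign of Masp2 turned under several settings given in the closing part. Fcna, a ficolin gene, and the collectin genes Colec10 and Colec11 did not pass either (0.13, -0.12 and 0.025), and Fcnb was at 0 in all libraries. Per length, Masp2 over Masp1 was 3.27 to 4.12 in Null and 6.18 to 8.28 in ATF3.

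C3 was the most abundant member in every library, and its difference did not pass the test. Null 1 to 4 held 210375, 210966, 256485 and 130402 normalized counts, and ATF3 1 to 4 held 323347, 224998, 311731 and 294879. Null 4 was the lowest of all 8, and ATF3 2 lay within the Null range. The log2 change was 0.54 (SE 0.22, 95% interval 0.05 to 1.04, limma adjusted p = 0.114). Without Null 4 it was 0.35 (adjusted p = 0.186). The log2 ratio of Mbl1 over C3 was lower by 1.34 in ATF3 (SE 0.35, exact permutation p = 0.0286, adjusted over the 7 pairs 0.04). The ranges of Mbl1 and C3 already fixed this separation, so its p adds no support beyond the values of both genes.

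Of the terminal components, C8a changed the most. This gene encodes the alpha chain of C8, which inserts into the membrane. Null 1 to 4 held 28693, 31739.9, 30986 and 33282 normalized counts, and ATF3 1 to 4 held 3621, 3965, 2355 and 2812. The mean of the ATF3 libraries was 10.2% of the Null mean. The log2 change was -3.32 (SE 0.16, 95% interval -3.66 to -2.97, limma adjusted p = 3.73e-07), a 9.97-fold difference. By size of fall C8a ranked 63 of 13301 tested genes.

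C8b, the beta chain gene, fell less. Normalized counts were 15928, 17271, 18069 and 16680.3 across the Null libraries and 9136, 9861, 10320.4 and 9219 across the ATF3 libraries. The groups did not overlap (log2 change -0.82, SE 0.09, limma adjusted p = 0.000132). C8g encodes the gamma chain, a lipocalin, with 3772, 4842, 4681 and 6136 normalized counts across the Null libraries and 3273, 4214, 3574 and 3368 across the ATF3 libraries. Its groups overlapped, and the log2 change of -0.41 did not pass (SE 0.15, 95% interval -0.74 to -0.09, limma adjusted p = 0.0692). C8g passed without Null 1 (-0.53, adjusted p = 0.0231).

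The 3 chains of C8 therefore changed unequally. In TPM, C8a over C8b was 1.15, 1.17, 1.10 and 1.27 in Null 1 to 4, close to equal amounts. In ATF3 1 to 4 the same ratio was 0.253, 0.257, 0.146 and 0.195. The log2 ratio of C8a over C8b was lower by 2.50 in ATF3 (SE 0.20), and that of C8a over C8g was lower by 2.90 (SE 0.19). Each gave exact permutation p = 0.0286 (adjusted over the 7 pairs 0.04). The ranges of the single genes already set both ratios apart between the groups. These p-values therefore add no support beyond the values of the single genes. C8b over C8g differed by -0.40 (SE 0.15) with overlapping groups, and this did not pass (exact permutation p = 0.114, adjusted 0.114).

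**Figure D2:**
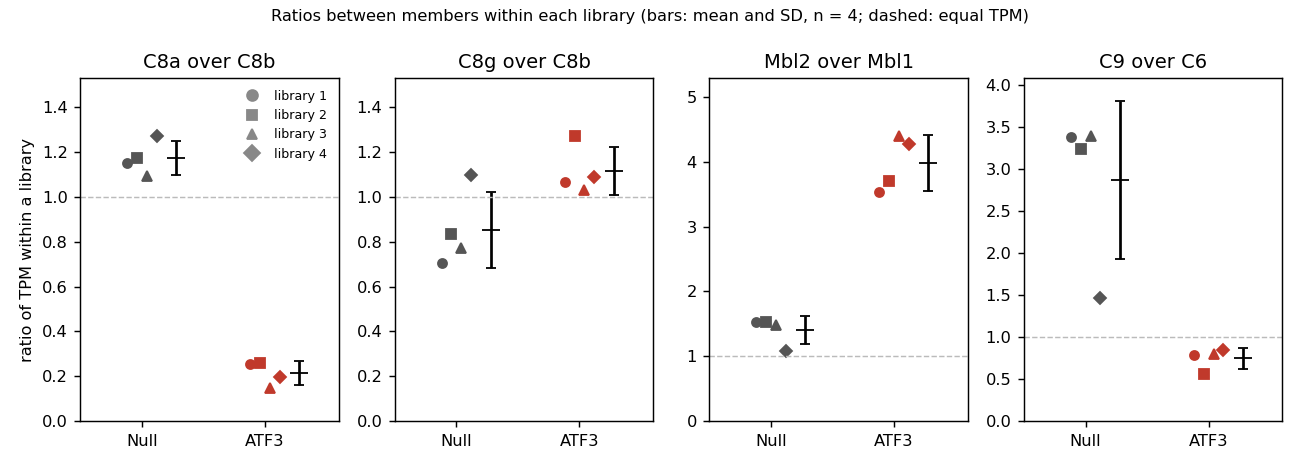
Ratio of TPM between pairs of members within each library (y axes, from 0; dashed line, equal TPM) for 4 Null (grey) and 4 ATF3 (red) libraries, with mean and SD. C8a over C8b lies at 1.10 to 1.27 in Null and 0.146 to 0.257 in ATF3, and Mbl2 over Mbl1 at 1.08 to 1.53 and 3.53 to 4.41; C8g over C8b overlaps between the groups.

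C9, which polymerizes into the pore, fell and varied most among the Null libraries. Null 1 to 4 gave 21401, 25414, 27903 and 10134 normalized counts, and ATF3 1 to 4 gave 8748, 6785, 10907 and 8666. Null 4 lay below ATF3 3, so the groups overlapped. The log2 change was -1.19 (SE 0.29, limma adjusted p = 0.0147), and without Null 4 it was -1.52 (adjusted p = 7.04e-05). The exact permutation test of C9 alone gave p = 0.0571.

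C6 binds C5b to start the complex, and it was the terminal member that rose. Null 1 to 4 gave 9958, 12356, 12917 and 10865 normalized counts, and ATF3 1 to 4 gave 17644, 19004, 21377 and 16140.0. Every ATF3 library exceeded every Null library (log2 change 0.69, SE 0.12, limma adjusted p = 0.00287). Per length, C9 over C6 was 3.38, 3.24, 3.40 and 1.47 across the Null libraries. Across the ATF3 libraries it was 0.780, 0.562, 0.803 and 0.845. C9 transcripts thus outnumbered C6 transcripts in every Null library and were fewer in every ATF3 library. The log2 ratio of C6 over C9 was higher by 1.88 in ATF3 (SE 0.33, exact permutation p = 0.0286, adjusted over the 7 pairs 0.04). The ranges of C6 and C9 already fixed this separation, so its p adds no support beyond the values of both genes. The other terminal genes did not pass: Hc, which encodes C5, was at -0.14 (SE 0.14, adjusted p = 0.518), and C7 was at -0.18 (SE 0.59, adjusted p = 0.857) with at most 265 normalized counts in any library.

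**Figure D3:**
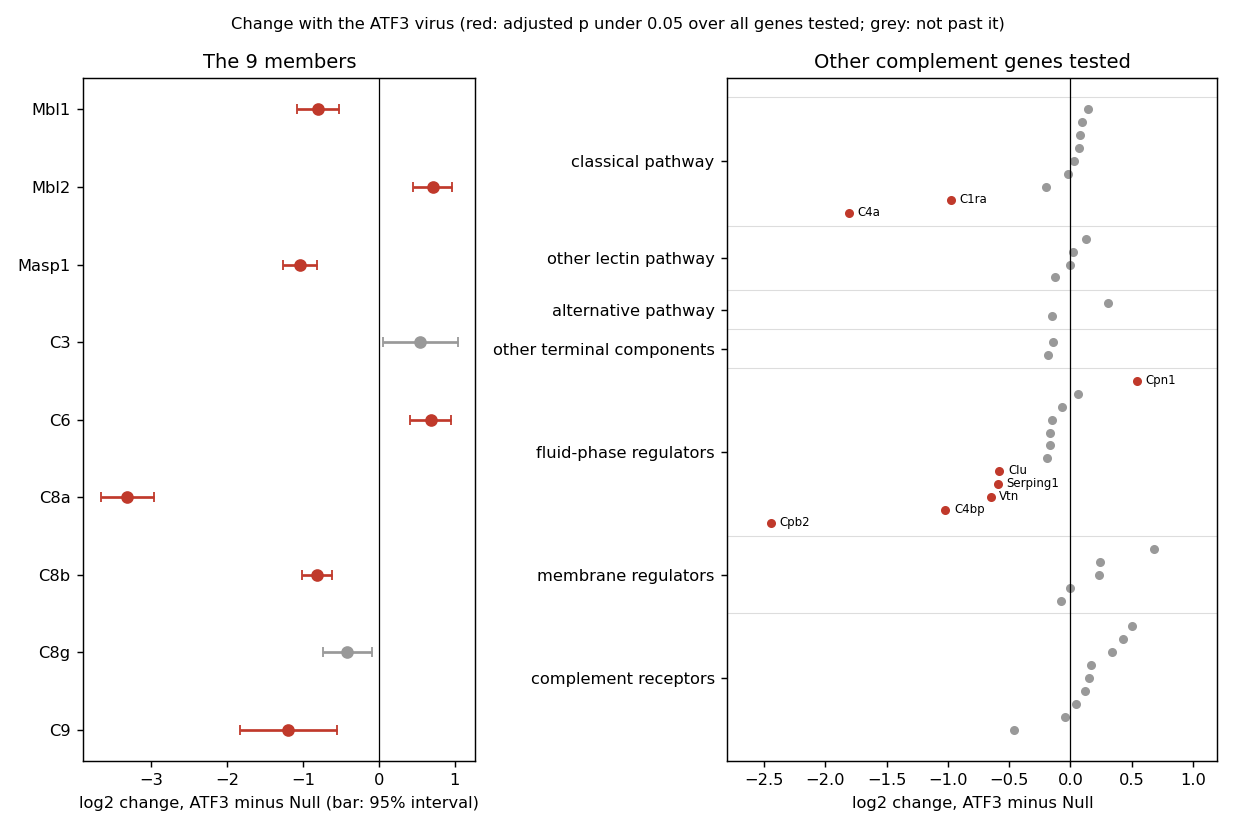
Log2 change (x axes, ATF3 minus Null, 4 libraries each) of the 9 members with 95% intervals, left, and of the 43 other complement genes tested, right, grouped by role; red marks an adjusted p under 0.05 and grey the rest. C8a at -3.32 stands lowest, Mbl2 and C6 are the members that rose, and the called genes among the others are C1ra, C4a and 6 fluid-phase regulators; in the deposited TPM without rescaling several of these signs turned.

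Levels of different genes were ranked within each library on TPM rescaled after leaving out Mir6236 and Rn45s. C3 came first in all 8 libraries, with 1119 to 2494 TPM in Null and 2332 to 3981 in ATF3, and Masp1 last with 73.4 to 77.2 and 39.9 to 51.5. In Null 1 to 3 the order after C3 was C9, C8a, C8b, Mbl2, C8g, Mbl1 and C6. In Null 4 C9 was at rank 7, with 276 TPM against 678 to 860 in the other Null libraries, and C8a and C8g were at ranks 2 and 3. In all 4 ATF3 libraries Mbl2 came second with 608 to 737 TPM, C6 at rank 3 with 366 to 477, Mbl1 at rank 7 with 163 to 179, and C8a at rank 8 with 42.6 to 72.9. C8b, C8g and C9 took ranks 4 to 6 there in varying order, with ranges that overlapped, 262 to 292, 289 to 333 and 223 to 383 TPM. Among the Null libraries the ranges of C8a (467 to 493 TPM) and C8b (366 to 450 TPM) did not overlap, while that of Mbl2 (306 to 395 TPM) overlapped those of C8b and of C8g (288 to 402 TPM).

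Between libraries of the same group, C3 and C9 varied together. Null 4 held the lowest Null value of both genes, and ATF3 2 the lowest ATF3 value of both. After removal of each group's mean, log2 values of C3 and C9 correlated with r = 0.944 over the 8 libraries, which share library scaling. C8g and Mbl1 varied together (r = 0.943), as did C6 and C8b (r = 0.949). C3 was at r = -0.770 with C8g and -0.757 with Mbl1. Among the Null libraries, Null 4 was lowest in C3 and C9 and highest in C8a, C8g, Mbl1 and Masp1. The pairs named were picked as those with the highest and the lowest r among all pairs of members. These values describe 8 libraries and carry no test.

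**Figure D4:**
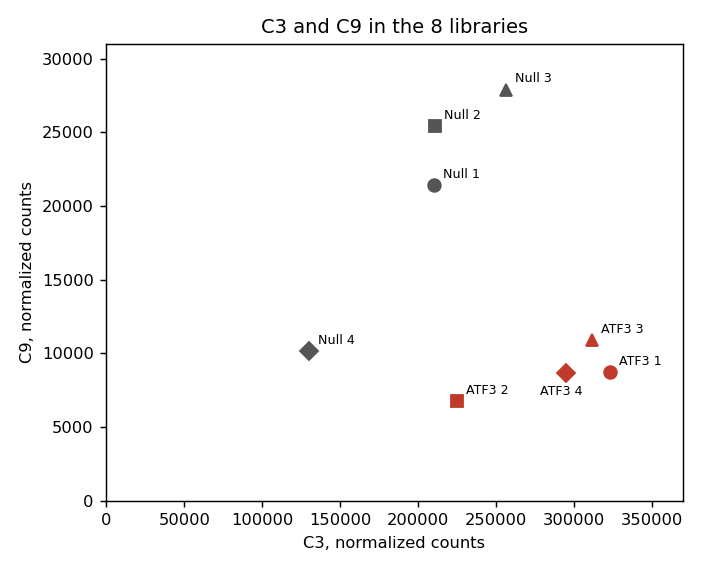
Normalized counts of C3 (x axis) against C9 (y axis), each point 1 library, Null in grey and ATF3 in red. Within each group the library lowest in C3 was also lowest in C9 (Null 4 with 130402 and 10134, ATF3 2 with 224998 and 6785), and all 4 ATF3 libraries lie below Null 1 to 3 in C9.

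Provisional symbols (Gm and a number, LOC, Rik) and small-RNA symbols (Mir, Snor) were left out of the search for genes most like a member. The remaining tested genes most like 4 of the members over all 8 libraries, by Pearson's r of log2(value + 1), were as follows. For C3 they were Oraov1 (0.986), BC029722 (0.976) and Adamts4 (0.974), the last at 6.22 to 17.4 normalized counts. For Mbl1 they were Il13ra1 (0.998), the tetraspanin gene Cd81 (0.995) and the interferon-induced peptidase gene Usp18 (0.991). For C6 they were Acpp (0.983), Tmem175 (0.982) and Bin3 (0.980), and for C9 Ninj1 (0.985), Cars (0.983) and Mreg (0.982). They were picked as the highest among the genes left of the 13301 tested, and part of each r is the shift between groups.

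In mm10, with GENCODE vM21 genes matched by symbol, C8a lies on chromosome 4 from 104815679 to 104876398 on the minus strand and C8b from 104766317 to 104804548 on the plus strand. The ends of the genes face each other, 11.1 kb apart. Within 250 kb of C8a, 2 of 3 tested neighbours fell, C8b and Prkaa2, an AMP-activated kinase subunit gene (log2 change -0.83, SE 0.12, limma adjusted p = 0.000866), and Fyb2 did not pass (-0.10, SE 0.17, adjusted p = 0.737). C6 (chromosome 15, 4727175 to 4814967) and C9 (6445327 to 6498751) share that chromosome but lie 1630 kb apart, and C7, with its end 174 kb from that of C6, did not pass. Mbl1 lies on chromosome 14 from 41151458 to 41159601 and Mbl2 on chromosome 19 from 30232942 to 30239687. Of 4 tested neighbours of Mbl1 3 fell, among them Mat1a, a methionine cycle gene 27.0 kb away (-1.89, SE 0.11, adjusted p = 1.40e-06), and of 2 tested neighbours of Mbl2 none passed. Around the other members the counts were 3 of 11 tested around C3 (2 lower), 3 of 23 around C8g (2 lower), 1 of 3 around C9 and 1 of 3 around Masp1 (both lower), and the 1 tested around C6 did not pass. Over all tested genes 9.82% were lower and 21.2% passed in either direction, and counts this small are given as a description. Mat1a and Prkaa2 were named after their values were seen. C8g is on chromosome 2 (25498651 to 25501719), Masp1 on chromosome 16 (23449417 to 23520815) and C3 on chromosome 17 (57203970 to 57228136). On the other strand C8a overlaps Gm17662, for which no values were used here, C8g overlaps Fbxw5, and Masp1 overlaps Rtp4 and 2 further transcripts. Whether the counting used strand is not given in the sources used here, so reads from the overlapped bases of C8a, C8g and Masp1 are uncertain. Neither Fbxw5 (0.14, limma adjusted p = 0.431) nor Rtp4 (-0.18, adjusted p = 0.440) passed. At most 2.43% of the 31-base stretches of any member (C8g) occurred in other genes.

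Of the 43 other complement genes tested in 7 lists by role, 7 fell and 1 rose, with a median change of -0.0060. These 8 calls among 43 genes are a share near the 21.2% of all tested genes that passed. The 7 that fell were 2 classical-pathway genes and 5 fluid-phase regulators. C1ra, a protease gene of the C1 complex, had 10644 to 16213 normalized counts in Null and 5596 to 6764 in ATF3 (log2 change -0.98, SE 0.14, limma adjusted p = 0.000866). C4a had 531 to 1382 in Null and 211 to 336 in ATF3 (-1.81, SE 0.28). Both are uncertain as single genes, since 59.6% of the 31-base stretches of C1ra and 43.3% of those of C4a occur in other genes. The C1q chain genes, C1s1, C2 and C4b did not pass. C4b is uncertain in the same way, with 48.3% of its 31-base stretches in other genes.

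The fluid-phase regulators fell in 5 of 12 tested members and rose in 1, beside 9.82% of all tested genes lower and 11.4% higher. Cpb2, a carboxypeptidase gene whose product inactivates anaphylatoxins and slows fibrinolysis, had 7762 to 9340 normalized counts in Null and 1402 to 1936 in ATF3 (log2 change -2.44, SE 0.12, limma adjusted p = 3.95e-07). C4bp, which restrains the classical and lectin pathways, fell by 1.02 (SE 0.12, adjusted p = 0.000177). Vtn, whose product vitronectin blocks membrane insertion of the terminal complex, fell by 0.65. Serping1, the C1 inhibitor gene, fell by 0.59 and Clu, the clusterin gene, by 0.58. Cpn1, a subunit gene of carboxypeptidase N, rose by 0.54, with groups that overlapped. The Clu call was lost without Null 1, Null 2, Null 3, ATF3 1, ATF3 3 or ATF3 4 (limma adjusted p from 0.0555 to 0.0737). The Cpn1 call was lost without Null 1, Null 2, Null 3, ATF3 2, ATF3 3 or ATF3 4 (limma adjusted p from 0.0537 to 0.0650).

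In the alternative pathway neither Cfb (-0.15) nor Cfp (0.30) passed. None of 5 membrane regulators passed, among them Cd59b (0.68, SE 0.22, limma adjusted p = 0.0545) at 15.2 to 33.1 normalized counts, Cd55 (0.24), Cr1l (-0.079) and Cd46 (0.24). None of 9 complement receptors passed, with Itgax at 0.50, Itgb2 at 0.34, C5ar1 at 0.43 and Cr2 at -0.46. Cd59b passed without Null 3 (limma adjusted p = 0.0290), and also with a pseudocount of 10, upper-quartile scaling or rescaled TPM.

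Genes of 2 further lists were followed, since liver complement genes are known to respond to hepatocyte and acute-phase transcription factors. In the list of interleukin-6 and C/EBP signalling genes, 3 of 11 tested fell and 1 rose, beside 9.82% and 11.4% of all tested genes. Cebpd rose by 1.15 (82.7 to 160 normalized counts in Null, 225 to 319 in ATF3), while Cebpa fell by 0.60 and the interleukin-6 receptor chain gene Il6st fell by 0.46. Stat3 fell by 0.30 (limma adjusted p = 0.0438), and its call was lost without Null 1, Null 2, Null 3, ATF3 2, ATF3 3 or ATF3 4 (adjusted p from 0.0848 to 0.138). In the list of hepatocyte transcription factors, 2 of 14 fell and 2 rose, so that 4 of 14 passed beside 21.2% of all tested genes. Foxa3 fell by 0.65 and Stat5a by 0.63, and Ppara rose by 0.40 and Nr5a2 by 0.30. The calls of Ppara (without Null 2, Null 3, ATF3 1, ATF3 3 or ATF3 4) and Nr5a2 (without ATF3 3) were lost, with limma adjusted p from 0.0537 to 0.0662. Their part in the change of the 9 members was not tested.

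**Figure D5:**
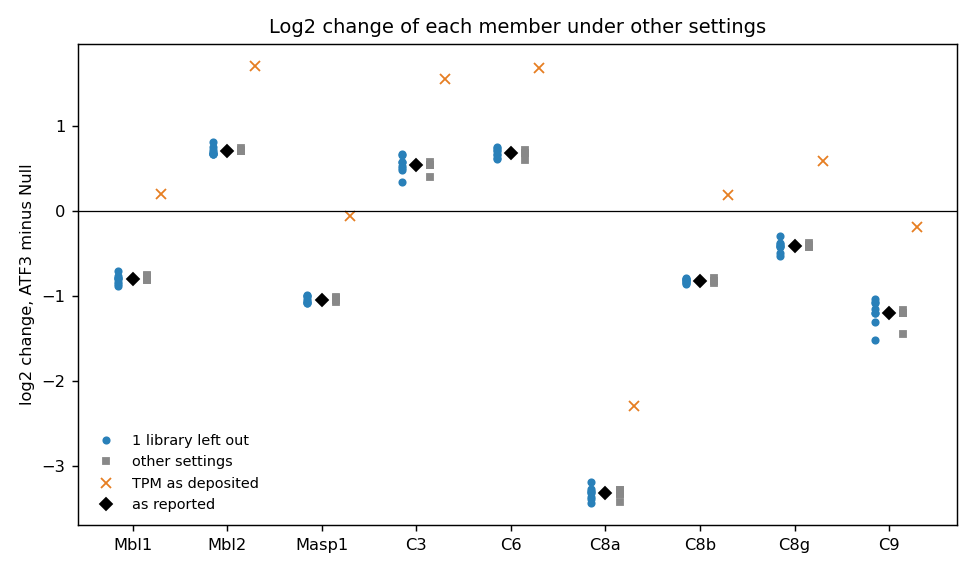
Log2 change (y axis, ATF3 minus Null) of each member as reported (black), with 1 library left out (blue), under 9 other settings (grey) and with TPM as deposited (orange). A further grey point for each member, from its permutation test, repeats the reported value. Under all but TPM as deposited each member kept its direction; there the median of all genes was 0.68 and Mbl1, C8b and C8g had positive values.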

How the data were processed

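Whole-liver total RNA of 8 libraries (4 Null, 4 ATF3) was sequenced from stranded total RNA libraries, per the labels' protocols. Bowtie2 and mm10 are named in the submitters' processing notes. How reads were quantified and with which gene models is not given in the sources used here. The authors deposited a normalized count per gene (a signal scaled by library, not whole reads) and a second table with TPM. Mir6236 took 0.308% to 89.4% of a library's TPM. Libraries were assigned by genotype label and column title. No pair of libraries shared identical values in more than 10 tested genes.

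limma 3.58.1 (R 4.3.3) was fitted to log2(value + 1) of the normalized counts for genes reaching 10 in 4 or more libraries, with an eBayes trend, two-sided, and Benjamini-Hochberg adjustment over 13301 genes at 0.05. Adding 1 understates changes of low genes. Log2 ratios of 7 pairs of members were compared by exact permutation (70 assignments). Shared stretches came from GENCODE vM21. The fit was tested on simulated data. The number of reads behind each value is unknown, so no counting interval is given. Alternatives covered pseudocount, filter, scaling, TPM, variance, library weights and leaving out each library. Genes named were the 9 members, called genes of each list or otherwise its 4 smallest p, and 3 most alike genes for 4 members. Ranking on TPM without Mir6236 and Rn45s was added after seeing the data. Some genes of the lists are not reported here. The members and lists were chosen with earlier results of these data known. Python 3.11.15, scipy 1.17.1 and matplotlib 3.10.9 were used.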

Additional observations from a re-analysis of the deposited data

Results flagged for a closer look

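A search for a library far from the other 3 of its group, over 48 groups of 4 values, found 5, where chance flags about 1 in 20. Mbl2 in ATF3 1 had 8430.4 normalized counts against 10949.6 to 11189 in the other ATF3 libraries. C1ra in Null 4 had 16213 against 10644 to 11033 in the other Null libraries. Null 4 also lay apart in 3 log2 ratios: Mbl1 over Mbl2 was -0.45 against -0.95 to -0.91, C6 over C9 was 0.10 against -1.11 to -1.04, and Mbl1 over C3 was -4.87 against -6.12 to -5.96. The ATF3 libraries had -2.47 to -2.15, 0.897 to 1.49 and -7.42 to -6.58 for the same ratios. What sets these libraries apart was not tested.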

How the results depend on the processing

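No paired analysis was possible because the replicate numbers were given in accession order and pair no libraries. Without rescaling, the deposited TPM had a median over all genes of 0.68 in place of 0.0068, and 440 genes were then higher and 76 lower, against 1513 and 1306 (85.3% of calls higher, against 53.7%). C8b (0.19), C8g (0.58) and Mbl1 (0.20) turned sign there, and C6 (1.68), C8a (-2.29), C9 (-0.19), Masp1 (-0.054) and Mbl2 (1.71) no longer passed. Of the other named genes C1ra (0.025), C7 (0.16), Cebpa (0.40), Cfb (0.85), Clu (0.43), Colec10 (0.75), Cr1l (0.85), Cr2 (0.019), Foxa3 (0.33), Hc (0.86), Il6st (0.52), Masp2 (0.99), Serping1 (0.41), Stat3 (0.65), Stat5a (0.18) and Vtn (0.36) turned sign. Of the other complement genes 0 were then higher and 0 lower, against 1 and 7. With TPM rescaled by median of ratios all 9 members had the reported direction and call.

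Library weights gave 2271 higher and 2130 lower genes, C8g passed (-0.40), 3 other complement genes were higher, and Cr1l (0.022) and Masp2 (0.041) turned sign. Masp2 also turned with upper-quartile scaling (0.028). Other complement genes higher numbered 2 with a pseudocount of 10, upper-quartile scaling or rescaled TPM. The exact permutation test of C9 alone gave -1.19 with p = 0.0571. Without the filter on low values, and with upper-quartile scaling, Stat3 did not pass.

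Leaving out 1 library gave 1040 to 1965 higher and 851 to 1812 lower genes (851 without ATF3 3), 0 to 2 other complement genes higher and 6 to 7 lower. C8g ranged from -0.53 to -0.30, and the other 8 members kept direction and call. The paired ratios ranged from -1.56 to -1.39 (Mbl1 over Mbl2), -2.60 to -2.33 (C8a over C8b), -3.02 to -2.77 (C8a over C8g), 1.75 to 2.18 (C6 over C9) and -1.52 to -1.05 (Mbl1 over C3). With 7 libraries the permutation test cannot go below 0.0571, so none can pass. Signs turned for C7 (-0.68 to 0.44), Cd46 (-0.14 to 0.50), Colec11 (-0.054 to 0.13), Cr1l (-0.13 to 0.048) and Masp2 (-0.10 to 0.11), none of them called. The number of libraries, 4 a group, limits all tests.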
